A study of Mus musculus with 12 samples.

Results

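The 4 mouse lung tumors with the most *Slc2a3* RNA were set beside the 4 with the least, out of 12 tumors. By a number in the description of each tumor, which is taken here as the mouse although the labels do not name it so, they come from 9 mice. The tumors were selected on the measured value itself: all 12 were ranked by the deposited log2 value of *Slc2a3*, the gene of the glucose transporter Glut3, so every difference between the *Slc2a3*-high and *Slc2a3*-low tumors below is a description without a test. Tests were made only between the groups that the labels give.

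Glut3 is a facilitative glucose transporter of the plasma membrane with a high affinity for glucose, best known from neurons, and Glut1 (*Slc2a1*) is the widely expressed member of the same family. Glucose that enters a cell is phosphorylated by hexokinases, passes through glycolysis to pyruvate, and can be turned into lactate and back by lactate dehydrogenase. In lung adenocarcinoma, whose cells often keep features of alveolar type 2 cells, both transporters are expressed.

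All mice were C57BL/6 by the strain label, C57BL6/J by the protocol, with the engineered alleles of the KP model, *Trp53* Flox/Flox among them, and a CCSP-rtTA transgene, in which the club-cell secretory protein promoter drives rtTA. KPG1 mice carried *Slc2a1* Flox/Flox alleles in addition. Every mouse received 6000 units of one lentiviral vector into the airways, which brings Cre and a doxycycline-inducible PPARαΔ13, a dominant negative form of PPARα. KP-PPARαΔ13 and KPG1-PPARαΔ13 mice were fed doxycycline (625 mg/kg) for 15 days and KP and KPG1 mice a regular diet, so KP and KPG1 tumors also carried the vector. Macrodissected tumors, 3 per group, were collected at 26 weeks, and the RNA is that of their CD45-negative cells. Every KP tumor was from a female and every KPG1 tumor from a male, while the KP-PPARαΔ13 tumors were 1 female and 2 male and the KPG1-PPARαΔ13 tumors 2 female and 1 male. The total count per tumor was between 25263794 and 32654223.

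The genotypes and diets are those of the labels, and RNA bore them out in part. *Slc2a1* was at 41.5, 34.4 and 58.2 CPM (counts scaled to a common library size after TMM) in KP tumors 1 to 3 and at 30.6, 63.7 and 40.3 in KPG1, a log2 fold change of -0.006 (SE 0.355, edgeR adjusted p = 0.998). It was at 153, 117 and 108 CPM in KP-PPARαΔ13 and at 23.4, 53.4 and 53.7 in KPG1-PPARαΔ13. Those groups did not overlap, with a log2 fold change of -1.514 (SE 0.362, edgeR adjusted p = 0.462). *Ppara* was at 2.72, 65.7 and 246 CPM in KP-PPARαΔ13 and at 8.76, 19.3 and 17.5 in KPG1-PPARαΔ13, against 7.35 to 15.6 in the 6 tumors on a regular diet. *Sftpc*, the surfactant gene that marks alveolar type 2 cells, was at 5570 CPM or more in each tumor.

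*Slc2a3* (ENSMUSG00000003153, chromosome 6, 122727809 to 122801640, minus strand, mm10) differed 29.7-fold between the highest and the lowest tumor. The highest set was KPG1-PPARαΔ13 tumor 1 at 716 CPM, KPG1 tumor 3 at 333, KP tumor 1 at 311 and KPG1 tumor 1 at 273. The lowest set was KPG1-PPARαΔ13 tumor 3 at 105, KP tumor 2 at 34.2, KPG1 tumor 2 at 33.5 and KP-PPARαΔ13 tumor 3 at 24.1. In between were KPG1-PPARαΔ13 tumor 2 (235), KP tumor 3 (204), KP-PPARαΔ13 tumor 1 (189) and KP-PPARαΔ13 tumor 2 (133). On the log2 scale the sets stood at 8.56 ± 0.63 and 5.37 ± 0.92 (SD, n = 4 each). The limits between them are narrow: the lowest member of the high set had 8.09 and the next tumor 7.88, and the highest member of the low set had 6.71 and the tumor above it 7.06. *Slc2a3* rested on 719 counts in its lowest tumor and 21316 in its highest.

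Neither set belonged to a genotype, a diet or a sex. The high set held 3 tumors labelled with floxed *Slc2a1* and 1 without, 1 from a doxycycline-fed mouse and 3 from a regular diet, and 2 from females and 2 from males. The low set held 2 and 2 in each of these 3 respects. KP, KPG1 and KPG1-PPARαΔ13 each had tumors in both sets, while KP-PPARαΔ13 had none in the high set. In each of these 3 groups a single mouse gave a tumor to both sets: KPG1-PPARαΔ13 tumors 1 and 3, KP tumors 1 and 2, and KPG1 tumors 1 and 2. *Slc2a3* differed within these mice by 2.77, 3.19 and 3.02 log2 units, with genotype, diet, sex and, by that number, mouse held the same. The sets did differ in depth: total counts were 25263794 to 30486887 in the high set and 30976130 to 32654223 in the low set, without overlap. The part of depth in the results below was not tested. Among the low tumors KP tumor 2 stood apart in other genes: it had *Bpifa1*, a secreted airway protein, at 1970 CPM and *Muc1*, an epithelial mucin, at 79.9 CPM, against 1.00 to 346 and 131 to 1430 in the other 11 tumors.

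**Figure D1:**
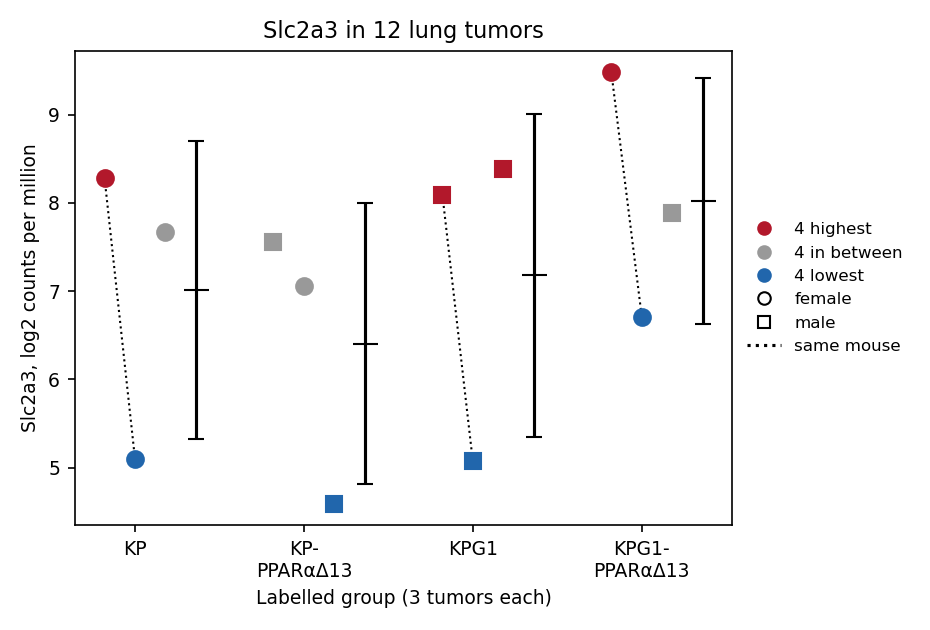
Deposited log2 CPM of *Slc2a3* (vertical axis) in each of 12 tumors by labelled group; circles are females, squares males, colors the 3 sets, dotted lines join tumors of 1 mouse, and black bars are the group mean ± SD (n = 3). The 3 dotted lines each run from the high to the low set, and the 4 group bars overlap.

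Between the labelled groups *Slc2a3* did not pass a test. Its mean was 183 ± 140 CPM in KP, 115 ± 83.7 in KP-PPARαΔ13, 213 ± 158 in KPG1 and 352 ± 322 in KPG1-PPARαΔ13 (SD, n = 3 each). In order of level, KP-PPARαΔ13 was lowest, then KP, KPG1 and KPG1-PPARαΔ13, and each neighbour in this order lay within the SD of the next. The edgeR quasi-likelihood test of any difference among the 4 groups gave an adjusted p of 0.77. With PPARαΔ13 the log2 fold change was -0.684 in KP (SE 1.0, edgeR adjusted p = 0.863) and 0.757 in KPG1 (SE 1.0, edgeR adjusted p = 0.808). Single tumors moved these values. In KP it was -0.055 without KP tumor 1 and -1.242 without KP-PPARαΔ13 tumor 1. In KPG1 it turned to -0.305 without KPG1-PPARαΔ13 tumor 1 and was 1.204 without KPG1 tumor 3. Floxed against wild-type *Slc2a1* gave 0.198 on a regular diet (SE 0.995, edgeR adjusted p = 0.982) and 1.639 on doxycycline (SE 1.02, edgeR adjusted p = 0.607). On the regular diet it turned to -0.292 without KP tumor 2 and was 0.827 without KP tumor 1. On doxycycline it was 0.577 without KPG1-PPARαΔ13 tumor 1 and 2.196 without KP-PPARαΔ13 tumor 1. The difference between the PPARαΔ13 changes in KPG1 and KP was 1.441 (SE 1.41, edgeR adjusted p = 0.707). Without KPG1-PPARαΔ13 tumor 1 this difference was 0.379, and without KP-PPARαΔ13 tumor 1 it was 1.998. On the regular diet genotype and sex cannot be told apart, since KP held only females and KPG1 only males.

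*Slc2a3* varied more between tumors of one group than nearly any gene of its level. Its SD within groups was 1.64 log2 units, against a median of 0.43 over the tested genes and 0.31 over the 2078 genes within 2-fold of its mean of 216 CPM. Of those 2078 genes 8, or 0.385%, had a larger SD.

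Levels of different transporters were compared per length, as CPM per kilobase of exons. *Slc2a3* was at 98.8 in KPG1-PPARαΔ13 tumor 1, at 46.0, 43.0 and 37.6 in the other high tumors, and at 14.4, 4.72, 4.62 and 3.32 in the low tumors. *Slc2a1*, the gene of Glut1, was at 6.66, 11.5, 11.8 and 8.74 in the high tumors and at 15.3, 9.82, 18.2 and 30.8 in the low tumors in the same order. The per-length level of *Slc2a3* was 3.63 to 14.8 times that of *Slc2a1* in the high tumors and 0.108 to 0.942 times in the low tumors. The sets were chosen on *Slc2a3*, so a gap in this ratio follows at least in part from the choice. Floxed *Slc2a1* was carried by 3 of the 4 high and 2 of the 4 low tumors, and its part was not tested. *Slc2a3* stood above *Slc2a1* in 6 of the 12 tumors and was the highest of the 15 transporters examined in 4. These 4 are not the high set: they were KPG1-PPARαΔ13 tumors 1 and 2, KP tumor 1 and KPG1 tumor 1. In KPG1 tumor 3, of the high set, *Slc50a1* was higher, at 52.5 against 46.0. *Slc2a3* made up 36.3% to 77.3% of the summed per-length level of the 15 genes in the high tumors and 3.54% to 21.7% in the low tumors, which again holds the gene that chose the sets. The sum, which includes *Slc2a3*, was 97.0 to 128 in the high tumors and 61.8 to 93.9 in the low tumors. Without *Slc2a3* it was 29.0, 80.5, 62.6 and 59.4 in the high tumors and 52.0, 57.0, 77.0 and 90.6 in the low tumors, so the sets overlapped.

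**Figure D2:**
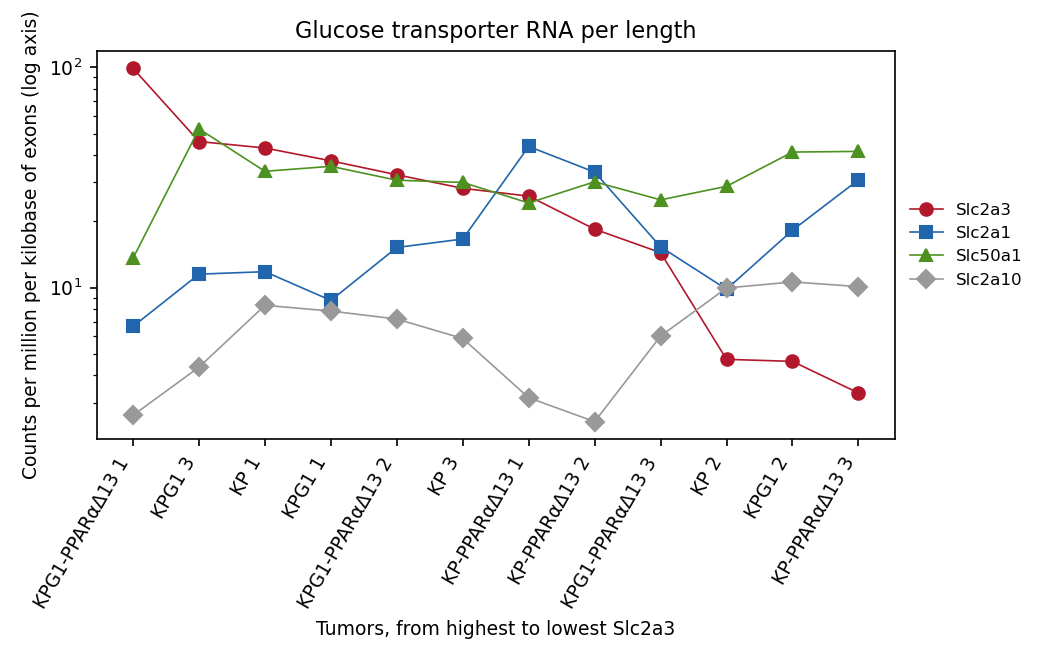
CPM per kilobase of exons (log axis) of 4 glucose transporter genes in 12 tumors, ordered from highest to lowest *Slc2a3*. *Slc2a3* falls from 98.8 to 3.32, while *Slc50a1*, the gene of a SWEET-family transporter, stays between 13.6 and 52.5.

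Of 11 other transporter genes with enough counts, 0 met the rule used below for a difference between the sets. That rule was met by 0.484% of all other tested genes as higher and 0.575% as lower, so 0 in a short list says little. The median difference of the 11 was -0.01 log2 units, beside 0.02 over all other tested genes. *Slc2a1* was 0.85 lower in the high set and *Slc2a10* 0.78 lower, both with overlap between the sets. The high set held 3 tumors with floxed *Slc2a1* and the low set 2. The largest positive difference, 1.58, was in *Slc2a13*, a proton-coupled myo-inositol transporter, which was low throughout: it was at 0.357, 0.156, 0.118 and 0.214 CPM per kilobase in the high tumors and at 0.0507, 0.0814, 0.0246 and 0.156 in the low tumors, again with overlap. *Slc2a8* (-0.10) and *Slc5a1*, a sodium-coupled glucose transporter (0.43), overlapped too. Of the 15 tested genes within 500000 bases of *Slc2a3* on chromosome 6, 0 met the rule and the median difference was 0.12. They ran from -1.93 in *Gm8430* to 1.78 in *Gm10224*, both processed pseudogenes, and the 12 protein-coding genes from -0.25 in *Clec4d* to 0.44 in *Nanog*.

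Across the genome few genes separated the sets. A gene was counted where the mean deposited log2 value of the 4 high tumors differed from that of the 4 low tumors by at least 1 and no value of one set reached the other. Of 16526 other tested genes 80 were higher (0.484%) and 95 lower (0.575%). With shares this small, 0 genes by the rule in a short list says little about that list. Without the minimum difference, 276 were higher without overlap (1.67%) and 257 lower (1.56%). The counts changed when a tumor was left out: without KP tumor 2 they were 204 and 260, and without KP-PPARαΔ13 tumor 3 they were 279 and 135. Over all 8 tumors left out in turn they were 128 to 279 and 135 to 260. Leaving out any tumor also loosens the rule, since 3 values overlap less often than 4. In absolute size, 39 genes had a larger difference than the 3.19 of *Slc2a3*. Asked instead of the 3 mice with a tumor in each set, 126 genes were at least 1 higher in the high tumor of all 3 mice (0.762%) and 123 at least 1 lower (0.744%). Of the 80 higher and 95 lower genes, 37 and 38 met this too. The pairs are made of the same tumors as the sets, so this is not an independent check. A gene without overlap has the same direction in all 3 pairs, and only the size of the difference is free. With the tumors of each mouse summed, 3 mice against 3, 6 of the 80 and 7 of the 95 met the rule. In the 3 mice that gave a tumor to both sets, summing adds a high tumor to a low one. The sets compared are then different ones, so this small overlap cannot check the main lists. In that comparison 63 of the 80 and 68 of the 95 had the same direction. With sets ranked within the labelled groups, 33 of the 80 and 44 of the 95 met the rule. In 61 of the 80 and 81 of the 95 the mean of the 4 tumors in between lay between the sets.

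The labelled groups were compared across the same genes, and the number called depended on the tool and on how tumors of a mouse were counted. The edgeR test of any difference among the 4 groups called 10 of 16527 genes (0.0605%). It called 1 gene for PPARαΔ13 in KP (0.00605%), 1 for PPARαΔ13 in KPG1 (0.00605%), 6 for floxed *Slc2a1* on a regular diet (0.0363%) and 5 on doxycycline (0.0303%). In the same order limma voom called 12, 1, 0, 5 and 5. With the tumors of the same mouse summed, edgeR called 2, 0, 0, 2 and 2 in this order. DESeq2 called more, at 518 of the 16431 genes to which it gave an adjusted p for any difference (3.15%), 372 for PPARαΔ13 in KP (2.31%), 197 for PPARαΔ13 in KPG1 (1.25%), 53 for floxed *Slc2a1* on a regular diet (0.323%) and 160 on doxycycline (1.08%). Of the 175 genes that separated the sets, 0 were among the calls of edgeR or limma voom, whose calls are too few for that to say anything of these genes. By DESeq2 6 of the 173 with an adjusted p were called for any difference (3.47%), near the share of all genes. For the single comparisons DESeq2 called 6 of 162 for PPARαΔ13 in KP (3.70%) 2 of 141 for floxed *Slc2a1* on doxycycline (1.42%), 0 of 157 for PPARαΔ13 in KPG1 and 0 of 173 for floxed *Slc2a1* on a regular diet. A gene that misses the threshold is not thereby shown to be alike in the groups.

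*Ldhb*, the heart-type subunit of lactate dehydrogenase, which interconverts lactate and pyruvate, was both among the largest differences and among the genes most like *Slc2a3*. It was at 159, 214, 222 and 208 CPM in the high tumors, in order of falling *Slc2a3*, and at 34.7, 34.9, 44.0 and 23.8 in the low tumors. The sets were far apart, at 7.64 ± 0.22 and 5.07 ± 0.37 log2 units (SD, n = 4), a difference of 2.57 (5.93-fold). Within the 3 mice the difference was 2.20, 2.67 and 2.24, where the direction, but not the size, is fixed by the lack of overlap. In between, KPG1-PPARαΔ13 tumor 2 and KP tumor 3 were near the high set (151 and 157) and the KP-PPARαΔ13 tumors near the low set (57.5 and 40.2). *Ldha*, the subunit of the muscle-type enzyme and the most abundant gene of the glycolysis list, was at 1010, 1170, 756 and 1410 CPM in the high tumors and 1000, 657, 1810 and 942 in the low tumors, so its sets overlapped (difference 0.04). In the labelled groups *Ldhb* did not pass the edgeR test (adjusted p = 0.564 for any difference).

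**Figure D3:**
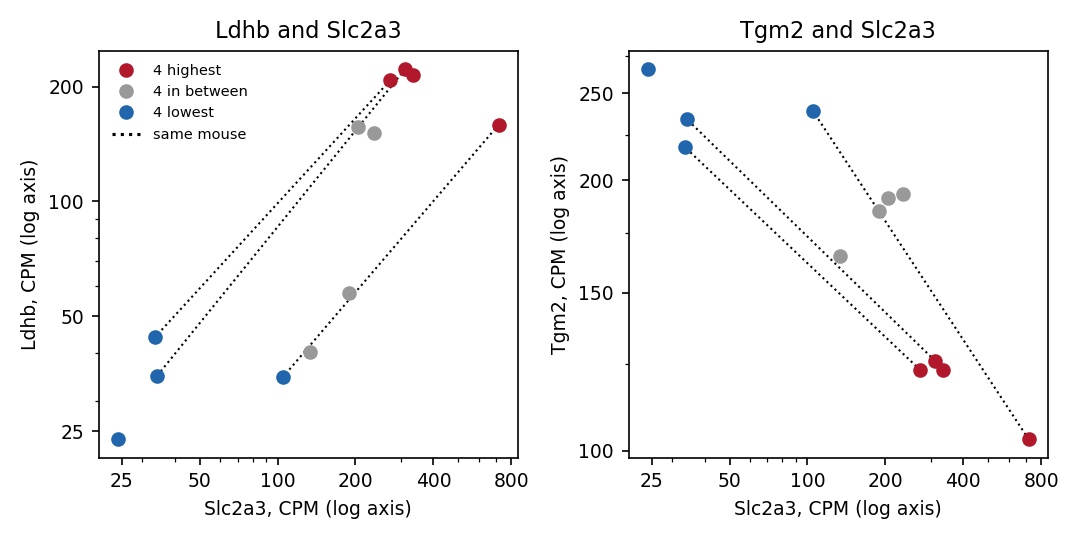
CPM of *Ldhb* (left) and *Tgm2* (right) against *Slc2a3* in 12 tumors, all on log axes; colors are the 3 sets and dotted lines join tumors of 1 mouse. *Ldhb* is above 150 in the high set and below 50 in the low set, and *Tgm2* runs the other way.

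The rest of glycolysis did not separate the sets in the same direction. Of 22 genes for glycolysis and lactate, 1 (*Ldhb*) met the rule as higher and 0 as lower, beside 0.484% and 0.575% of all other tested genes. The median difference was -0.17, beside 0.02 over all genes. *Hk2*, an inducible hexokinase that traps glucose in the cell, was lower in the high set without overlap: 125, 125, 163 and 172 CPM against 201, 189, 209 and 182, a difference of -0.43. *Pkm*, the pyruvate kinase gene (-0.48), *Pgk1*, phosphoglycerate kinase (-0.30), and the lactate exporter *Slc16a3* (-0.84) overlapped. *Pfkp*, the platelet-type phosphofructokinase, had the largest positive value after *Ldhb* (1.32), with 68.2 to 120 CPM in the high tumors and 11.5 to 86.5 in the low tumors. *Gapdh* (-0.34) has many processed copies in the genome and its counts are uncertain. *G6pdx*, the entry enzyme of the pentose phosphate pathway, was at 42.2, 51.6, 31.3 and 50.9 CPM in the high tumors and 80.7, 63.6, 78.4 and 114 in the low tumors. The sets did not overlap, with a difference of -0.93.

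Targets of hypoxia-inducible factors (HIF), transcription factors that act on many glycolytic genes, went in both directions. Of 25 genes, 13 were higher and 12 lower, and the median was 0.00. By the rule 0 differed in either direction. Over all other tested genes 0.484% met it as higher and 0.575% as lower, so 0 of 25 says little. *Vegfa*, the angiogenic growth factor and the most abundant of them, was at 251, 413, 712 and 440 CPM in the high tumors and 336, 265, 475 and 606 in the low tumors. *Car9* (-0.89), *Bnip3* (0.14), *Egln3* (-0.15) and *Pdk1* (-0.10) overlapped as well.

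Promoters from RefSeq (GRCm38.p6, 250 bases before the start to 50 after it) were searched on both strands for the core HIF motif, which has a pair of forms. The first form is ACGTG, read as CACGT where it lies on the opposite strand, and an ACGTG with a C before it matches on both strands. The second form is GCGTG, which the opposite strand shows as CACGC in the same window. A promoter was matched for 47 of the 80 higher and 56 of the 95 lower genes. Of these 9 (19.1%) and 11 (19.6%) held ACGTG, against 28.1% of 11132 promoters of tested genes and 21.8% of all 27025. GCGTG was held by 26 (55.3%) and 19 (33.9%), against 53.3% and 35.2%, and at least 1 of the forms by 30 (63.8%) and 24 (42.9%), against 64.8% and 46.7%. The promoters of *Ldhb* and *Hk2*, the 2 glycolytic genes whose sets did not overlap, are shown on the strand of the gene with matches in capitals. A match is a stretch of letters and not a bound site. *Ldhb* (chr6:142507908-142508207, minus strand) has 0 matches to ACGTG and 1 to GCGTG, and *Hk2* (chr6:82774405-82774704, minus strand) has 2 to ACGTG and 0 to GCGTG.
Ldhb: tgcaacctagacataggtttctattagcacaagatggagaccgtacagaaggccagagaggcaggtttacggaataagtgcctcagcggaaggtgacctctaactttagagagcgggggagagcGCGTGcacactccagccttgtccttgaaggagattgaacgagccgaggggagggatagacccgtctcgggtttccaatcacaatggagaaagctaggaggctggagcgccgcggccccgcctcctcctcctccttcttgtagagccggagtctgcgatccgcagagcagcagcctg
Hk2: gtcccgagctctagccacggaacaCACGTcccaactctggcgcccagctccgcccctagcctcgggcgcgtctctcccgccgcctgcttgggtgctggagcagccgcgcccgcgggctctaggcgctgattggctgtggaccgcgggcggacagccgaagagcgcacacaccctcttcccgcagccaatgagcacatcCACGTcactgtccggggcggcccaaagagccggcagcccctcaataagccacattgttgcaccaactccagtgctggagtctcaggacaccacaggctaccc

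Genes of largest difference on the high side had mixed roles. *Pla2g7*, a secreted enzyme that breaks down platelet-activating factor, was at 82.5, 65.6, 358 and 211 CPM in the high tumors and 9.79, 27.0, 17.9 and 14.2 in the low tumors. Of the tumors in between, KPG1-PPARαΔ13 tumor 2 (5.71) and KP-PPARαΔ13 tumor 1 (5.10) lay below the low set, KP tumor 3 (19.9) within it and KP-PPARαΔ13 tumor 2 (33.8) between the sets. *Npr2*, a receptor for C-type natriuretic peptide, was tight within sets, at 55.7, 55.1, 67.0 and 61.3 CPM against 7.0, 11, 8.20 and 12.4. It differed by 2.66 log2 units, with SDs of 0.13 and 0.38. *Fbn2*, a microfibril protein, was at 21, 6.27, 22.5 and 23.2 CPM against 2.09, 2.87, 3.19 and 1.14 (2.90), and its highest value, 34.9, was in KP-PPARαΔ13 tumor 1. *Fbln5*, an elastic fibre protein (1.58), also separated the sets.

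Metabolic genes on the high side included *Oat*, the mitochondrial ornithine aminotransferase, at 111, 82.2, 146 and 75.2 CPM against 27.4, 4.14, 27.5 and 53.1 (2.31). *Lclat1*, an acyltransferase of cardiolipin remodelling (1.93), *G0s2*, an inhibitor of the main triglyceride lipase (1.75), and *Slc4a5*, a sodium bicarbonate cotransporter (1.52), separated the sets as well. *G0s2* did so narrowly, with 6.34 CPM in its lowest high tumor and 6.30 in its highest low tumor. The others named by size were *Fam26e* (2.91), the cyclic nucleotide-gated channel gene *Cnga1* (2.19), *Nrn1*, neuritin (1.75), and *Smim3* (1.65). *Nrn1* was at 227, 235, 175 and 178 CPM in the high tumors and 138, 89.5, 141 and 7.60 in the low tumors. Its difference rests on KP-PPARαΔ13 tumor 3, without which it was 0.75 and short of the rule. *Oat* fell to 1.55 without KP tumor 2. The largest difference on the high side among genes without overlap at a mean of 5 CPM or more, 5.15, was in *Rps27a-ps2*. This gene is a processed pseudogene of a ribosomal protein gene, and its reads may come from other copies. It was uneven, from 30.6 to 112 CPM in the high tumors and 0.172 to 18.5 in the low tumors, and the difference was 4.0 without KPG1 tumor 2 and 6.21 without KP tumor 2.

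*Scgb1a1* encodes the club-cell secretory protein, from whose promoter the transgene of these mice takes its CCSP drive. It was at 157, 76.8, 42.0 and 57.5 CPM in the high tumors and 15.3, 7.99, 25.4 and 21.3 in the low tumors, a difference of 2.19 without overlap. The 4 tumors in between, at 5.58 to 17.9, were as low as the low set. Of 10 airway markers 6 were higher and 4 lower, with a median of 0.30 and medians within the KPG1-PPARαΔ13, KP and KPG1 mice of 2.20, -0.77 and 0.79. *Scgb1a1* and *Ccdc39*, a gene of motile cilia (2.29, under 6 CPM in every tumor), met the rule. *Foxj1*, the ciliary transcription factor (0.37), overlapped, and so did the airway genes *Scgb3a1* (-2.23), *Scgb3a2* (-0.30) and *Bpifa1* (-2.07). The value of *Bpifa1* rests on KP tumor 2 (1970 CPM): without that tumor it was -0.04, *Scgb3a2* was 0.48, *Scgb3a1* -1.65 and *Scgb1a1* 1.86, and 7 of the 10 were higher (median 0.31).

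**Figure D4:**
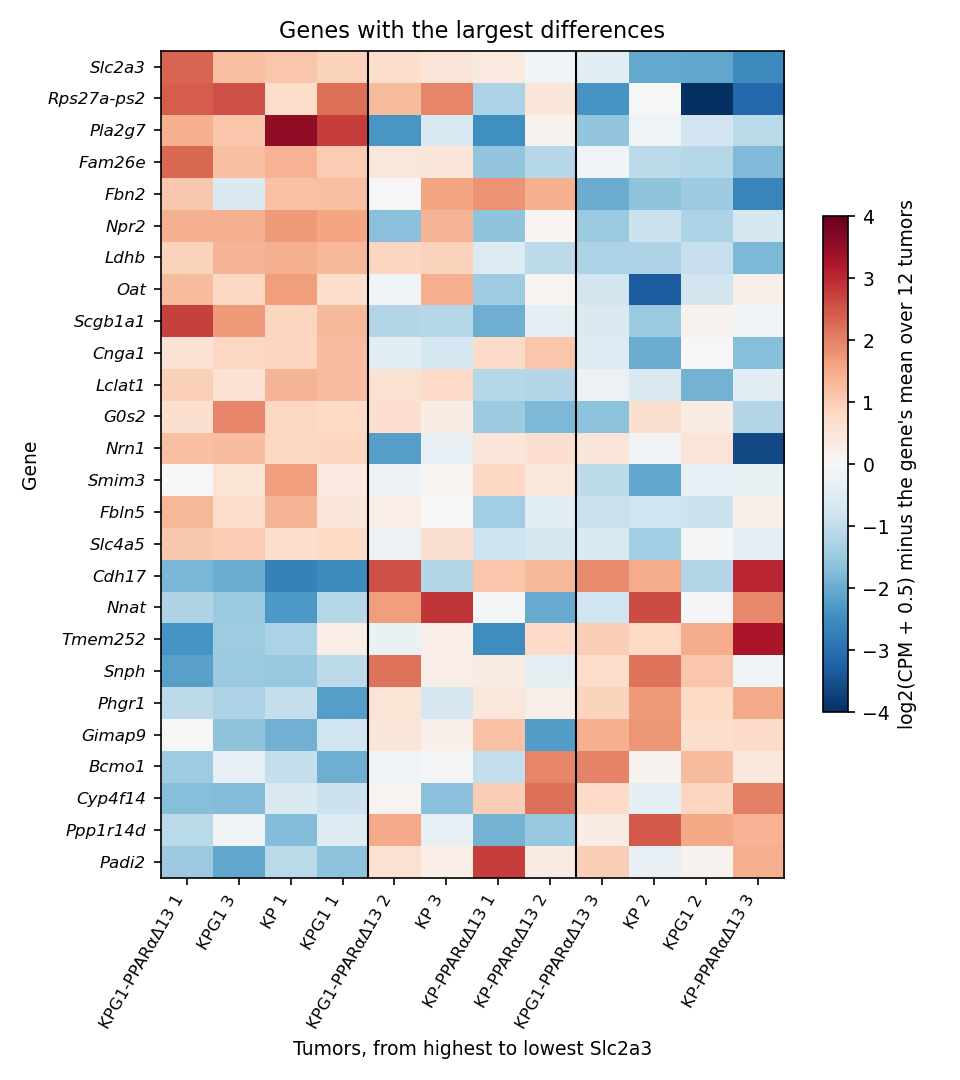
Each row is a gene and each column a tumor, from highest *Slc2a3* (left) to lowest, with black lines between the 3 sets; color is log2(CPM + 0.5) minus the mean of the gene over 12 tumors, held at 4 in either direction. The 15 genes under *Slc2a3* are higher in the left set and the 10 below them lower, as the rule requires, and the middle set varies by gene.

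On the low side *Cdh17*, an intestinal cadherin, had the largest difference among genes without overlap at a mean of 5 CPM or more. It was at 13, 9.80, 1.13 and 30.1 CPM in the low tumors and 0.537, 0.434, 0.0681 and 0.122 in the high tumors. The high values rest on few counts (2 in KP tumor 1), so the difference of -5.12 depends on the offset of 0.5 in the log2 values. It was -4.49 without KP-PPARαΔ13 tumor 3 and -6.06 without KPG1 tumor 2. *Tmem252* was at 4.06, 8.21, 9.22 and 27.9 CPM in the high tumors against 46.1, 40.5, 65.0 and 228 (-2.91). *Phgr1* was at 3.73, 3.14, 3.98 and 1.38 CPM against 15.4, 27.6, 14.6 and 24.0 (-2.78). *Phgr1* and *Tmem252* followed *Slc2a3* inversely over all tumors, with r of -0.80 and -0.82.

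*Nnat*, an imprinted neuronal gene (-3.13, and -2.52 without KP tumor 2 or -3.77 without KPG1-PPARαΔ13 tumor 3), *Snph*, which anchors mitochondria in axons (-2.81), *Gimap9*, a GTPase of immune cells (-2.45), *Bcmo1*, a beta-carotene cleaving enzyme (-2.44), *Cyp4f14*, a cytochrome P450 (-2.43), *Ppp1r14d*, a phosphatase 1 inhibitor (-2.40), and *Padi2*, a peptidylarginine deiminase (-2.31), were the other genes named by size. The cholesterol synthesis list (14 genes) had a median of -0.15, and *Hmgcs1*, an early enzyme of the pathway, was 0.78 higher with overlap.

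The genes with a pattern most like *Slc2a3* were chosen by Pearson's r over the 12 log2 values, given without a test; the tumors share 9 mice, and these r come from the top of a ranking of 10838 genes. *Fam151b* (r = 0.91, rho = 0.9), *Mettl14*, a subunit of the RNA adenosine methyltransferase (0.91 and 0.83), *Mecr*, of mitochondrial fatty acid synthesis (0.91 and 0.83), and *Skiv2l2*, the RNA helicase of the nuclear exosome (0.90 and 0.88), led. *Ndufa4*, a respiratory chain subunit (r = 0.87), *Nol7* (0.85), *Ilf2*, a double-stranded RNA binding factor (0.85), *Ldhb* (0.84), *Hmgcs1* (0.84) and *Gsap* (0.84) followed. With the 2 tumors farthest from the median of *Slc2a3* left out these r were between 0.66, in *Gsap*, and 0.89, in *Mettl14*. Except for *Ldhb* their differences were small: *Mettl14* was at 38.2, 29.6, 29.9 and 30.7 CPM in the high tumors and 24.5, 18.9, 22.7 and 18.2 in the low tumors (0.61). *Fam151b* fell just short of the rule with a difference of 0.99, while *Pitpnm2* (1.01) and *Tgm2* (-1.01) just met it.

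The genes with the most opposite pattern were *Foxp4*, a forkhead factor (r = -0.90, difference -0.32), *Phldb1* (-0.87 and -1.43), *Tgm2*, transglutaminase 2 (-0.86 and -1.01), *Plcd3*, a phospholipase C (-0.83 and -1.08), and *Tshz2* (-0.83 and -1.27). *Tgm2* and *Plcd3* fell short of a difference of 1 without KPG1-PPARαΔ13 tumor 1 (-0.94 and -0.99), *Tgm2* also without KP-PPARαΔ13 tumor 3 (-0.96) and *Plcd3* without KP tumor 2 (-0.98). *Tgm2* was at 103, 123, 126 and 123 CPM in the high tumors and 239, 234, 218 and 266 in the low tumors. With the 4 tumors in between at 165 to 193, its 3 sets did not overlap. With the group means taken out, r for these 15 genes was between 0.84 and 0.96 or between -0.85 and -0.93.

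Markers of lung and gastric cell states mostly overlapped. Of 16 alveolar type 2 and surfactant genes 0 met the rule and the median was -0.03. Over all other tested genes 0.484% met the rule as higher and 0.575% as lower, so 0 in lists this short says little. *Sftpc* was at 9640, 30300, 14800 and 19700 CPM in the high tumors and 14900, 6740, 26400 and 13800 in the low tumors. The transcription factor *Nkx2-1*, which maintains lung identity, was 0.55 higher with overlap. Of 10 alveolar type 1 genes 9 were higher and 0 met the rule, with a median of 0.62. Within the KPG1-PPARαΔ13, KP and KPG1 mice the median of these genes was -0.18, 2.96 and 0.45. Their sum was 1390 to 3830 CPM in the high tumors and 369 to 4610 in the low tumors, with the lowest value in KP tumor 2. Of 10 tested gastric genes, 7 were lower and 0 met the rule (median -0.66). Among them *Lgals4*, a galectin of the gut epithelium, did not overlap: 43.6, 24.4, 19.2 and 31.0 CPM in the high tumors against 55.0, 47.4, 50.1 and 62.1 in the low tumors. *Hnf4a*, the gut and liver transcription factor, was 0.56 lower with overlap.

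Markers of cells other than tumor cells moved as follows, and their part in the differences above was not tested; in bulk RNA, fewer cells of a type and less RNA per cell cannot be told apart. All 12 endothelial genes were higher in the high set, by 0.19 to 0.59 (median 0.44, beside 0.02 over all other tested genes), each with overlap. Within the KPG1-PPARαΔ13, KP and KPG1 mice their median was -0.08, 1.17 and 1.65, so the first mouse did not share the direction. Their sum was 360, 561, 639 and 713 CPM against 380, 307, 248 and 1100, so KP-PPARαΔ13 tumor 3, in the low set, had the most; *Vwf* was the most abundant. Of 14 fibroblast and mural genes 12 were higher (median 0.58, 0 by the rule), with *Col1a2* the most abundant and sums of 316 to 613 CPM against 166 to 526. Within the mice, in the same order, their median was -0.02, 0.55 and 1.34. Of 5 erythroid genes 4 were higher (median 0.83, and 1.7, 0.88 and 0.64 within the mice), with *Hbb-bs* the most abundant and sums of 580 to 1400 against 312 to 903 CPM. *Hba-a2* and *Hba-a1* are near-identical and their split is uncertain.

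Immune markers overlapped between the sets. The macrophage list (9 genes) had a median of -0.09, the neutrophil list (9) -0.25, the lymphocyte list (3) 0.29 and the pan-leukocyte list (8) -0.02, each with 0 genes by the rule. With 0.484% higher and 0.575% lower by the rule over all other tested genes, 0 in such short lists says little. The pan-leukocyte genes, of which *Lcp1* was the most abundant, summed to 302, 326, 466 and 543 CPM in the high tumors and to 446, 190, 705 and 410 in the low tumors. *Ptprc*, the gene of CD45 on which cells had been removed, was at 5.67, 5.54, 31.3 and 4.87 CPM in the high tumors and 3.40, 1.84, 5.08 and 9.84 in the low tumors. KP tumor 1 had the most and KP tumor 2, from the same mouse, the least. In that mouse the median difference was 2.97 for pan-leukocyte genes, 2.35 for macrophage genes, 2.60 for neutrophil genes and 2.96 for alveolar type 1 genes. In the other mice with a pair the pan-leukocyte medians were -0.28 (KPG1-PPARαΔ13) and -0.68 (KPG1).

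**Figure D5:**
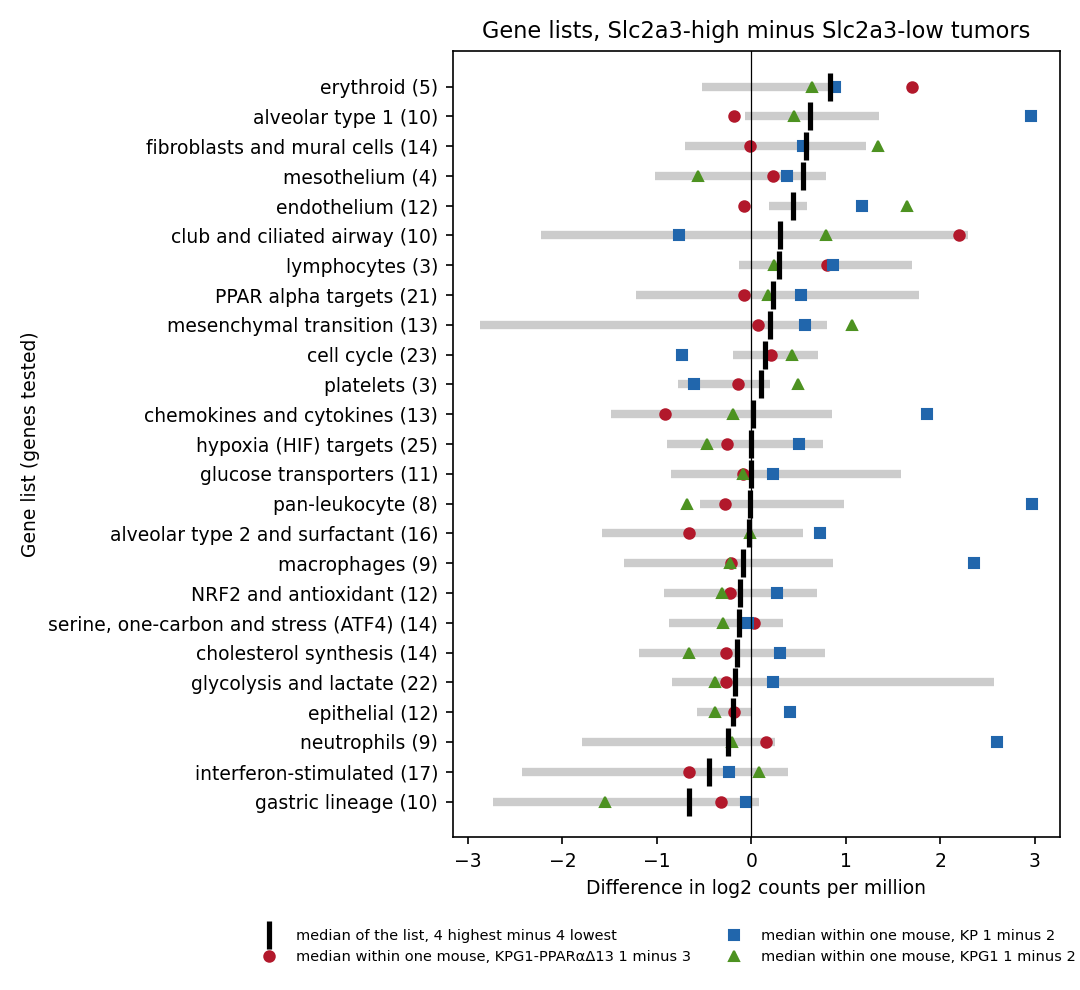
For 25 gene lists, the difference in log2 CPM between the sets: gray bars run from the lowest to the highest gene, black ticks mark the median, and colored symbols the median within each of 3 mice. Medians between the sets lie between -0.66 and 0.83, and those within the KP mouse reach 2.97.

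Signaling and stress lists gave few differences by the rule, which 0.484% of all other tested genes met as higher and 0.575% as lower. Of 17 interferon-stimulated genes 13 were lower (median -0.45) and *Oasl1*, an antiviral gene, met the rule (-1.63), at 1.30 to 1.91 CPM in the high tumors and 1.99 to 9.70 in the low tumors. *Mx1*, a second antiviral gene, was 2.43 lower with overlap, since KPG1 tumor 1 had 12 CPM. Of 21 tested PPARα targets, 0 met the rule and the median was 0.23. *Etfdh*, which passes electrons from fatty acid oxidation to the respiratory chain, was at 113, 110, 91.0 and 97.9 CPM against 80.8, 53.6, 75.7 and 72.2 (0.56, no overlap). The cell cycle list (23 genes) had a median of 0.14, the mesenchymal transition list (13) 0.20, the epithelial list (12) -0.20, the serine and ATF4 stress list (14) -0.13, the NRF2 and antioxidant list (12) -0.12 and the chemokine list (13) 0.02, each with 0 genes by the rule. The mesothelial (4 genes, 0.54) and platelet (3 genes, 0.10) lists had 0 too. Of the 12 epithelial genes 11 were lower, and the highest difference was 0.00. Of the 23 cell cycle genes 19 were higher and 4 lower.

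By chromosome, the share of tested genes that met the rule as lower, 0.575% over all, ran from 0% on chromosome 13 to 1.25% on chromosome 2. The share that met it as higher, 0.484% over all, ran from 0% on chromosomes 2, 15 and X to 1.46% on chromosome 18. Chromosome 18 held 6 higher and 1 lower genes among 411 tested, and chromosome 5 held 11 and 4 among 1014 (1.08% higher). The spread between chromosomes was not tested. Chromosome 2 held 17 lower and 0 higher genes among 1363 tested. Chromosomes X (7 and 0 of 580, 1.21% lower) and 15 (7 and 0 of 641, 1.09% lower) had lower genes alone as well, and chromosome 19 had 6 lower and 2 higher of 540 (1.11% lower). The median difference on chromosome 2 was -0.142. It was negative within each of the 3 mice, at -0.153, -0.255 and -0.142. Chromosome 19 had the lowest median (-0.371, and -0.417, -0.215 and -0.573 within mice). Chromosomes 13 (0.292) and 12 (0.28) had the highest medians. Within the KPG1-PPARαΔ13, KP and KPG1 mice the median was 0.501, -0.225 and 0.448 on chromosome 13, so it turned in the KP mouse, and 0.476, 0.062 and 0.235 on chromosome 12. Chromosome 6, which carries *Slc2a3*, *Ldhb* and *Hk2*, had a median of 0.057, with 6 higher and 2 lower genes among 810 tested. Gene dosage was not measured here.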

How the data were processed

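RNA from the CD45-negative cells of 12 mouse lung tumors was analysed. Single-end reads of stranded mRNA libraries were trimmed with Cutadapt, aligned to mm10 with HISAT2 and counted per gene by the authors; the submitters' processing notes list cutadapt 1.4.2 and featureCounts 1.4.4, and the annotation is not given in the sources used here. The authors deposited a count per gene for each tumor, without normalization, and a table of log2 values. The latter equal log2 CPM (counts scaled to a common library size) with an offset of 0.5 after TMM scaling. Total counts were 25263794 to 32654223, and the part of depth in the results was not tested. Of 39017 genes, 13548 had no count in any tumor.

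Groups and replicate numbers come from the labels, and mice from the number in each tumor's description. Tumors were ranked by the deposited log2 value of *Slc2a3*, and the difference of mean log2 values between the 4 highest and 4 lowest was described for each gene kept by filterByExpr. The members and gene lists were chosen with earlier results of these data known. Genes were named from the lists and as the 15 highest and 10 lowest differences without overlap, and the 10 highest and 5 lowest r with *Slc2a3*, at 5 CPM or more and without predicted symbols; *Pitpnm2* and the neighbors of *Slc2a3* were named after their values were seen. The labelled groups were compared with edgeR 4.0.16 (TMM, glmQLFit, glmQLFTest, Benjamini-Hochberg adjustment at 0.05) under R 4.3.3, on all 12 tumors as 4 groups of 3 with 8 residual degrees of freedom, tested on simulated data first. Tumors of 1 mouse counted as separate samples in this fit, so its p-values measure the spread between tumors. Alternatives were other set sizes, scalings and filters, ranking within groups, summing the tumors of a mouse, leaving out each tumor, sex or replicate number in the model, limma 3.58.1 voom and DESeq2 1.42.0; within-mouse pairs, the promoter motif GCGTG and airway markers without KP tumor 2 were added after seeing the data. Positions and exon lengths come from GENCODE M21 (mm10). Some genes are not reported here.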

Additional observations from a re-analysis of the deposited data

How the results depend on the processing

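The counts of genes that separate the sets depend on how many tumors must not overlap. Against 80 higher and 95 lower genes, 3 against 3 tumors gave 231 and 281, and 6 against 6 gave 11 and 6. The sets ranked within the labelled groups, which kept 3 of the 4 high and 4 of the 4 low tumors, gave 148 and 180, of which 33 and 44 were shared with the main lists. Summing the tumors of each mouse, 3 mice against 3 gave 310 and 327, of which 6 and 7 were shared with the main lists. Summing joins a high and a low tumor in each mouse that gave both, so it compares different sets and cannot check the main lists. Of the main lists, 63 of the 80 higher and 68 of the 95 lower genes kept their direction there. No filter on low counts gave 155 higher and 124 lower, and a mean of at least 20 CPM 18 and 23. The within-mouse pairs gave 126 higher and 123 lower. Scaling by library size alone gave 85 and 80, and DESeq2 size factors 72 and 93, with all 8 tumors in the same sets. Leaving out each tumor of the sets in turn gave 128 to 279 higher and 135 to 260 lower genes, since 3 values overlap less often than 4. Every one of the 8 moved the higher count by over 1.5 times: without KP-PPARαΔ13 tumor 3 it was 279, without KP tumor 2 204, without KPG1 tumor 1 160, without KPG1-PPARαΔ13 tumor 1 149, without KP tumor 1 139, without KPG1 tumor 3 137, without KPG1 tumor 2 134 and without KPG1-PPARαΔ13 tumor 3 128. The lower count moved as far without KP tumor 2 (260), KPG1 tumor 1 (203), KPG1-PPARαΔ13 tumor 1 (187), KPG1 tumor 3 (161) and KPG1 tumor 2 (159). The log2 range of *Slc2a3* was 4.89 with DESeq2 size factors and 5.09 with library size alone. The adjusted p of *Slc2a3* among the labelled groups was 0.73 to 0.942 over 19 alternatives, among them limma voom (0.836), DESeq2 (0.832), tumors of a mouse summed (0.817) and sex as a covariate (0.889). Genes called for any difference among the labelled groups numbered 10 by edgeR, 12 by limma voom and 518 by DESeq2. The cause was not tested. By edgeR they numbered 2 with the tumors of a mouse summed. With single tumors left out they numbered from 4, without KPG1 tumor 1 or KPG1 tumor 3, to 12, without KPG1-PPARαΔ13 tumor 2. With the replicate block the adjusted p of *Slc2a3* was 0.801. Replicate numbers pair no tumors by the labels, and correlations of deviations between tumors of the same number were -0.19 to 0.127.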
